A study of Mus musculus with 2 samples.

Results

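The genes of the activin and follistatin system were read in single-cell RNA data of injured mouse muscle: the ligand subunits Inhba and Inhbb, the extracellular binding proteins Fst, Fstl1 and Fstl3, and the receptors Acvr1, Acvr1b, Acvr2a and Acvr2b. These 9 genes were taken by symbol from the 32285 genes of the count matrices, and each symbol matched 1 row. The cells were mononuclear cells of the quadriceps of wild-type C57BL/6J mice, collected 9 h or 2 h after an injection of BaCl2 into that muscle (100 µl at 1.2% w/v), which destroys fibres and starts repair. Both times were injured, and muscle without injury was not analysed here. Cells were cryo-preserved and thawed before droplet 3′ sequencing, with 1 library at 9 h and 1 library at 2 h. There is therefore no replicate check of any difference between the times, no p-value is given, and the intervals (95%) cover counting error only. They treat each UMI (unique molecular identifier, 1 counted molecule) as independent, so they are too narrow where a few cells hold most UMIs.

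Activins are dimers of inhibin beta chains. Inhba encodes the chain of activin A and Inhbb the chain of activin B. The ligand binds a type II receptor (ACVR2A or ACVR2B), which engages the type I receptor ACVR1B and leads to phosphorylation of SMAD2 and SMAD3. Follistatin, from Fst, wraps around the ligand and blocks it, and FSTL3 does the same. FSTL1 shares the follistatin-type domain but is known mainly for other activities. ACVR1 is a type I receptor better known for signalling by bone morphogenetic proteins through SMAD1 and SMAD5. In skeletal muscle, activins and myostatin restrain growth, and follistatin counters them.

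After filtering, 8147 cells with 35127600 UMIs remained at 9 h (median 2327 UMIs per cell) and 4900 cells with 27598413 UMIs at 2 h (median 4519). Clusters were named from marker lists, and a class is written as "like" a cell type, since its name rests on marker RNA alone. Of the kept cells, 2376 at 9 h and 2014 at 2 h were like FAPs (fibro-adipogenic progenitors), mesenchymal cells of the muscle interstitium. At 9 h and 2 h there were 4190 and 1630 neutrophil-like, 552 and 263 endothelial-like, 358 and 173 monocyte-like, 233 and 314 resident macrophage-like and 117 and 142 dendritic-like cells. These 6 classes had at least 100 cells at each time and were compared between times. Smaller classes, such as tenocyte-like (62 and 91 cells) and satellite-like cells (69 and 81), are given as levels. Free RNA from abundant cells enters other droplets: Dcn, a FAP marker, stood in neutrophil-like cells at 0.834% of its FAP-like level at 9 h and 0.812% at 2 h. Different clusters held the FAP-like cells at the 2 times (2, 7 and 12 at 9 h, 3 and 8 at 2 h), and the same was true of neutrophil-like cells (mostly 1, 4 and 5 at 9 h, 0 at 2 h). Of all barcodes, 20 occurred in both libraries, 12 of them among kept cells.

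The promoters of both ligand genes are shown because the class with the highest level differed between them at 9 h. Each sequence holds the 250 bases before the RefSeq start on GRCm38.p6, read 5′ to 3′ on the strand of the gene. Inhba (ENSMUSG00000041324) lies on mm10 chromosome 13 at 16011851 to 16031621 on the plus strand, and its window is chr13:16011601-16011850. Inhbb (ENSMUSG00000037035) lies on chromosome 1 at 119415465 to 119422248 on the minus strand, and its window is chr1:119422249-119422498. Capitals mark a TATAAA match in Inhba and the reverse complement of GGGCGG in Inhbb.
Inhba promoter: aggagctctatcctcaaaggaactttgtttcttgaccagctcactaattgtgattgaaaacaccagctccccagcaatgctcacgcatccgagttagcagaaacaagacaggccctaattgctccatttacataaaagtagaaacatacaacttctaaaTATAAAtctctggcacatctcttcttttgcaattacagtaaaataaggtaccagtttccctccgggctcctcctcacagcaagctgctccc
Inhbb promoter: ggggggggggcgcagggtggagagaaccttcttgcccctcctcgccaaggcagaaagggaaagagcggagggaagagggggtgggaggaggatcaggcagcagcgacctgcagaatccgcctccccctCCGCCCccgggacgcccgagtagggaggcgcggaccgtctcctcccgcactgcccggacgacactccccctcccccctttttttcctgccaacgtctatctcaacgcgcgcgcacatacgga
The Inhba window had a GC content of 43.2%, and the Inhbb window 68.0%, against a median of 52.4% over 32851 promoter windows. The first base of the TATAAA match lay 91 bases before the start of Inhba. TATAAA, searched on both strands, was found in 12.4% of all windows. The GC box match of Inhbb began 122 bases before its start, and GGGCGG on either strand was found in 32.7% of windows. Neither window held TGANTCA (6.75% of windows), TGACGTCA (1.55%), CAGAC (42.2%) or ACGTG (16.6%), which says only that these letters are not there. Promoter windows were found for 8 of the 9 genes, all but Fst.

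Inhba RNA was found in several cell classes. Over all kept cells of a library it stood at 152 CPM at 9 h (UMIs per 1000000 UMIs of the cells named, 5356 UMIs) and 32.7 CPM at 2 h (903 UMIs), a ratio of 4.66 (4.34 to 5.01). In monocyte-like cells, the blood-derived cells that enter injured muscle, it stood at 397 CPM at 9 h (370 to 425, 822 UMIs) and 7.43 CPM at 2 h (3.56 to 13.7, 10 UMIs). The ratio in that class was 53.4 (28.9 to 112). At 9 h, 94 of its 822 UMIs lay in 1 cell, and the 10% of cells with most Inhba UMIs held 78.8% of them. FAP-like cells had 154 CPM at 9 h (148 to 159) and 40.3 CPM at 2 h (37.3 to 43.5), a ratio of 3.81 (3.50 to 4.16). Neutrophil-like cells had 145 CPM at 9 h (137 to 153) and 24.5 CPM at 2 h (19.6 to 30.3), a ratio of 5.90 (4.74 to 7.43). Inhba was thus at least 2-fold higher at 9 h in each of these 3 classes. Among genes with at least 100 UMIs, that was so for 5.90% of 3898 genes in monocyte-like cells (8.72% were lower), 15.7% of 10483 in FAP-like cells and 9.10% of 4889 in neutrophil-like cells (10.2% were lower). These shares depended on the scaling in all 3 classes. In FAP-like cells 1647 genes were higher and 2162 lower past 2-fold by class totals, and 2044 and 1895 by TMM factors. In monocyte-like cells 230 genes were higher and 340 lower past 2-fold by class totals, and 344 and 209 by TMM factors. In neutrophil-like cells the counts were 445 higher and 497 lower by class totals, and 562 and 382 by TMM.

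The Inhba level in neutrophil-like cells was above what free RNA of FAP-like cells would bring. From the Dcn level, the carried RNA was estimated at 1.28 CPM at 9 h and 0.328 CPM at 2 h in this class. In the other direction, the S100a8 level (a neutrophil marker) gave 2.63 CPM of neutrophil Inhba in FAP-like cells at 9 h and 0.232 CPM at 2 h. Subtracting the whole neutrophil-like level from each class turned the FAP-like log2 ratio to -0.44, against 1.70 as measured (both with 10 CPM added to each level). That subtraction takes off 145 CPM at 9 h, where the S100a8 estimate is 2.63 CPM.

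In resident macrophage-like cells, the long-lived macrophages of the tissue, Inhba stood at 101 CPM at 9 h (147 UMIs) and 9.19 CPM at 2 h (20 UMIs), a ratio of 10.9 (6.83 to 18.4). At 9 h, 70 of the 147 UMIs lay in 1 cell. Without the top cell of each library the log2 ratio was 2.30, against 2.53 with all cells, and without the cells of highest doublet score it was 1.35. With the neutrophil-like level subtracted it had to be 0.00. That level was the higher one at both times, and differences below 0 were set to 0. Carried neutrophil Inhba in this class was put at 1.77 CPM at 9 h and 0.264 CPM at 2 h, and carried FAP Inhba at 6.54 and 2.40 CPM. Genes past 2-fold higher made up 6.18% of 4285 in this class. Endothelial-like cells had 27.8 CPM at 9 h (46 UMIs) and 0 UMIs at 2 h, which allows up to 3.85 CPM. Carried RNA was put at 20.5 CPM from FAP-like and 18.1 CPM from neutrophil-like cells at 9 h, and the measured level lay above each of these and below their sum. Dendritic-like cells had 20.8 CPM at 9 h and 2.26 CPM at 2 h, on 20 and 3 UMIs. Tenocyte-like cells, the fibroblasts of tendon, had 176 CPM at 9 h (140 to 217) and 124 CPM at 2 h (102 to 151). Satellite-like cells, the muscle stem cells, had 0 UMIs at 9 h, which allows up to 14.0 CPM, and 1 UMI at 2 h. Pericyte or smooth muscle-like cells (34 at 9 h, 32 at 2 h) had 32.3 CPM at 9 h on 6 UMIs. At 2 h they had 97.4 CPM (61.1 to 147, 22 UMIs, 9 in 1 cell). Carried FAP Inhba there was put at 50.5 CPM at 9 h and 2.84 CPM at 2 h.

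By level, the order at 9 h among the 6 compared classes was monocyte-like, FAP-like, neutrophil-like, resident macrophage-like, endothelial-like and dendritic-like. The intervals of FAP-like and neutrophil-like cells met, as did those of endothelial-like and dendritic-like cells. At 2 h the order was FAP-like, neutrophil-like, resident macrophage-like, monocyte-like, dendritic-like and endothelial-like, and there the macrophage and monocyte intervals met, the dendritic interval met both, and the endothelial interval (0 to 3.85 CPM) met the monocyte and dendritic ones. By share, 56.2% (54.9% to 57.6%) of all Inhba UMIs at 9 h and 72.3% (69.3% to 75.2%) at 2 h lay in FAP-like cells. The neutrophil-like share was 21.8% at 9 h and 9.52% at 2 h, and the monocyte-like share 15.3% at 9 h and 1.11% at 2 h. More of the Inhba RNA thus lay in myeloid cells at 9 h than at 2 h in these libraries. Such shares also follow class size. FAP-like cells held 19589350 of all 35127600 UMIs at 9 h and 16195809 of 27598413 at 2 h, and neutrophil-like cells 8075782 and 3505133. At 9 h the FAP-like (154 CPM) and neutrophil-like (145 CPM) levels were near the 152 CPM of all cells. Their Inhba shares were then near their shares of all UMIs.

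**Figure D1:**
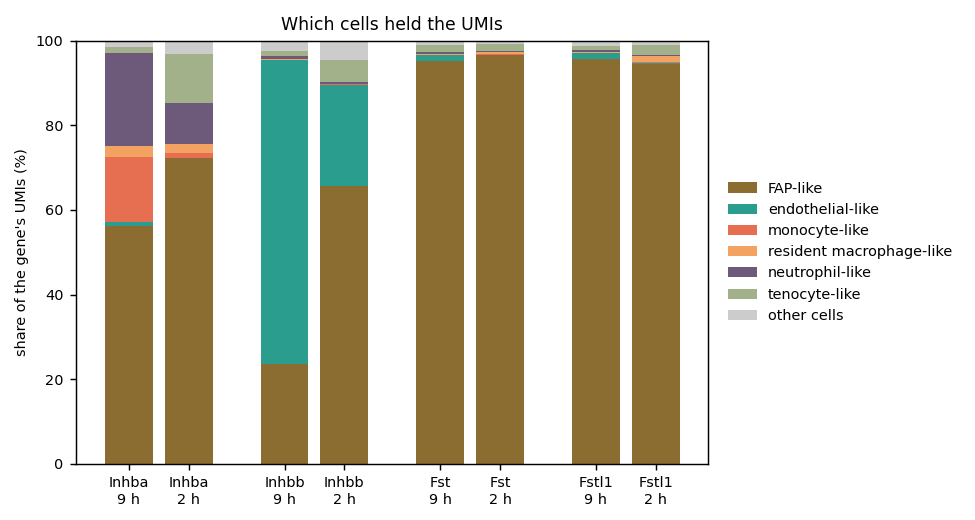
Share of the UMIs of Inhba, Inhbb, Fst and Fstl1 held by each cell class (percent of the gene's UMIs in the library, 9 h bar left of the 2 h bar). Of Fst UMIs, 95.1% at 9 h and 96.7% at 2 h lay in FAP-like cells, and of Inhbb UMIs 71.9% at 9 h and 23.7% at 2 h in endothelial-like cells.

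Inhba UMIs were detected in a minority of cells in each class, and a cell without a UMI may still hold the RNA. After each cell was thinned to 1000 UMIs, 15.8% of 354 monocyte-like cells had an Inhba UMI at 9 h and 0.581% of 172 at 2 h. The thinned share in neutrophil-like cells was 7.62% at 9 h and 1.82% at 2 h. In FAP-like cells it was 7.44% at 9 h and 3.01% at 2 h, against 21.0% and 13.4% without thinning. T or NK-like cells had 0 of 36 at 9 h and 0 of 101 at 2 h, with upper limits of 9.74% and 3.59% that lie above the FAP-like shares, so they set no background apart. Without thinning they had 5 Inhba UMIs at 9 h (39.0 CPM, 12.7 to 91.0) and 2 at 2 h, at median depths of 3101 and 3875 UMIs, against 8228 and 7953 UMIs in FAP-like cells. The 10% of FAP-like cells with most Inhba UMIs held 88.3% of them at 9 h and 89.6% at 2 h.

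Within the FAP-like class, Inhba differed between clusters. At 9 h, FAP-like cluster 2 (1486 cells, led by the neutrophil-attracting chemokine genes Cxcl5 and Cxcl1 and by Ccl2) had 227 CPM (218 to 235). Cluster 7 (607 cells, led by the acute-phase genes Saa1 and Saa2) had 20.4 CPM (16.5 to 24.8), and cluster 12 (237 cells, led by Krtdap, Dmkn and Sbsn) had 42.1 CPM (34.0 to 51.6). The level of cluster 2 was 11.1 times (9.10 to 13.8) that of cluster 7, and 12.5 times without the top cell of each. At 2 h, cluster 3 (1422 cells, Col15a1 among its leading genes) had 50.6 CPM (46.5 to 54.9) and cluster 8 (580 cells, Pi16 among its leading genes) 16.6 CPM (13.2 to 20.7), a ratio of 3.04 (2.41 to 3.89). Inhba and the list genes took no part in the clustering, so these levels did not make the clusters.

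Further splits were chosen after values had been seen and are descriptions. FAP-like cells above the median of Cxcl5 at 9 h had 256 CPM of Inhba, against 37.4 CPM in those at or below it, a ratio of 6.84 (6.11 to 7.67). Monocyte-like cells above the median of Spp1 and Arg1 together, genes of early wound macrophages, had 630 CPM at 9 h, against 174 CPM in the others, a ratio of 3.62 (3.07 to 4.29). Neutrophil-like cells above the median of the chemokine genes Ccl3 and Ccl4 had 194 CPM at 9 h, against 85.9 CPM in the others, a ratio of 2.26 (1.98 to 2.58). The same neutrophil-like split at 2 h gave 33.9 and 14.7 CPM, a ratio of 2.31 (1.43 to 3.85). In all 3 classes, the cells richer in these genes were also richer in Inhba. Neutrophil-like cluster 1, led by Ccrl2, Ccl3 and Ccl4, had 198 CPM at 9 h, against 122 CPM in cluster 5, 95.1 CPM in cluster 4 and 39.4 CPM in cluster 0.

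**Figure D2:**
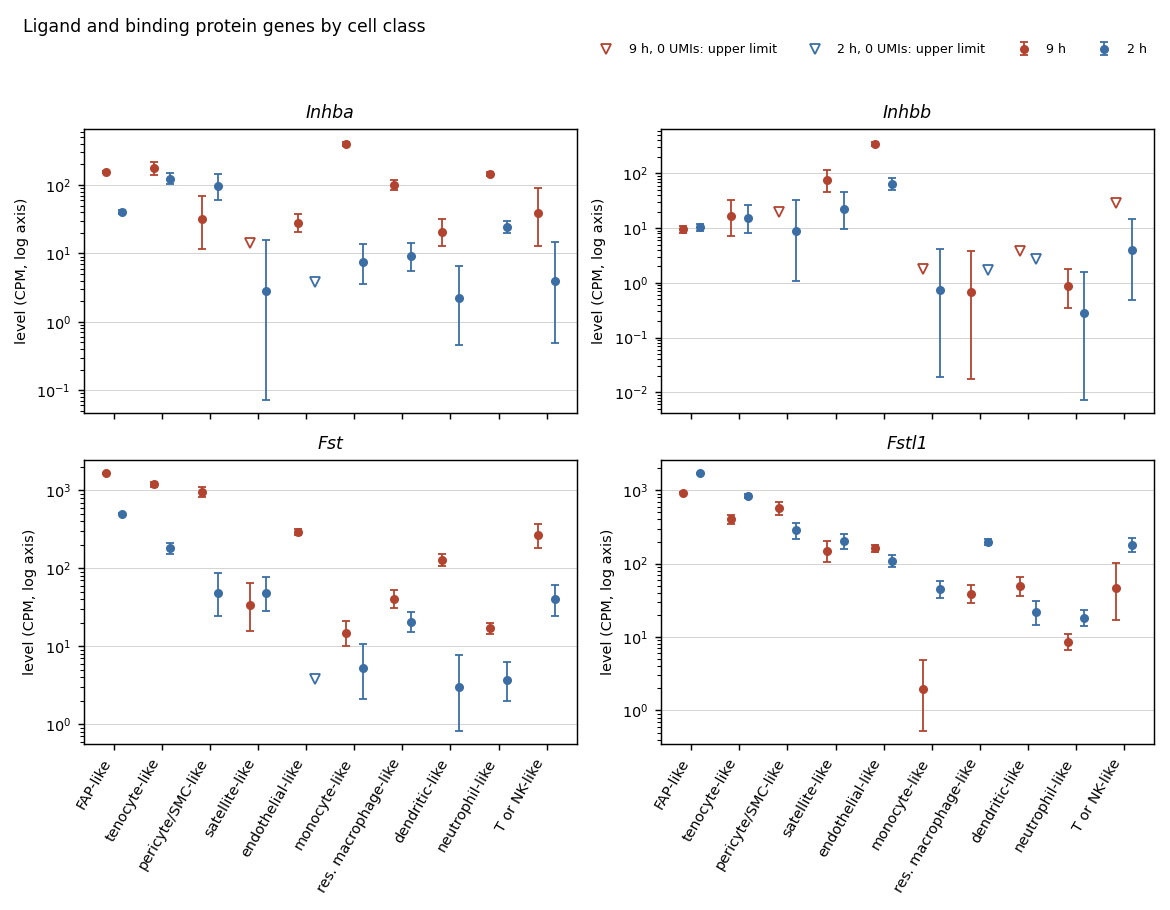
Levels of Inhba, Inhbb, Fst and Fstl1 in each cell class (CPM on a log axis, 95% Poisson intervals for counting error, 9 h left of 2 h; open triangles give the upper limit where no UMI was counted). Inhba in monocyte-like cells lay at 397 CPM at 9 h and 7.43 CPM at 2 h, and Inhbb in endothelial-like cells at 344 CPM at 9 h and 63.6 CPM at 2 h.

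Inhbb differed from Inhba in its highest class, the endothelial-like cells, while FAP-like cells held the largest share of Inhba at both times and of Inhbb at 2 h. Endothelial-like cells, which line vessels, had 344 CPM of Inhbb at 9 h (317 to 374, 570 UMIs) and 63.6 CPM at 2 h (48.7 to 81.8, 61 UMIs), a ratio of 5.41 (4.15 to 7.17). Of 3989 genes measured in that class, 10.1% were at least 2-fold higher and 9.93% lower. Their part of all Inhbb UMIs was 71.9% (68.6% to 75.0%) at 9 h and 23.7% (18.7% to 29.4%) at 2 h. The thinned share of endothelial-like cells with an Inhbb UMI was 23.8% at 9 h and 4.10% at 2 h, against 0.0775% at 9 h and 0 of 1536 (upper limit 0.240%) at 2 h in neutrophil-like cells, whose median depths were 1658 and 2013 UMIs against 2368 and 3149 UMIs. Endothelial-like cells that held a UMI of the venous genes Vwf, Selp or Ackr1 had 277 CPM at 9 h, against 357 CPM in those without. At 2 h the levels were 62.3 and 64.3 CPM, so Inhbb was found in cells with and without these genes at both times.

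FAP-like cells had 9.55 CPM of Inhbb at 9 h and 10.4 CPM at 2 h, a ratio of 0.915 (0.739 to 1.13) whose interval covers no change. They held 23.6% (20.7% to 26.7%) of the Inhbb UMIs at 9 h and 65.8% (59.6% to 71.5%) at 2 h, the largest share of any class at 2 h. Over all kept cells Inhbb stood at 22.6 CPM at 9 h and 9.31 CPM at 2 h. Among FAP-like clusters, the one with most Inhba at each time had the least Inhbb. At 9 h, cluster 2 had 4.28 CPM, cluster 7 had 14.1 CPM and cluster 12 had 29.3 CPM. At 2 h, cluster 3 had 7.26 CPM and cluster 8 had 17.9 CPM, a ratio of 0.407 (0.297 to 0.556). Satellite-like cells had 75.7 CPM at 9 h (20 UMIs) and 22.8 CPM at 2 h (8 UMIs). Monocyte-like cells had 0 UMIs of Inhbb at 9 h and 1 UMI at 2 h, and dendritic-like cells 0 at both times.

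**Figure D3:**
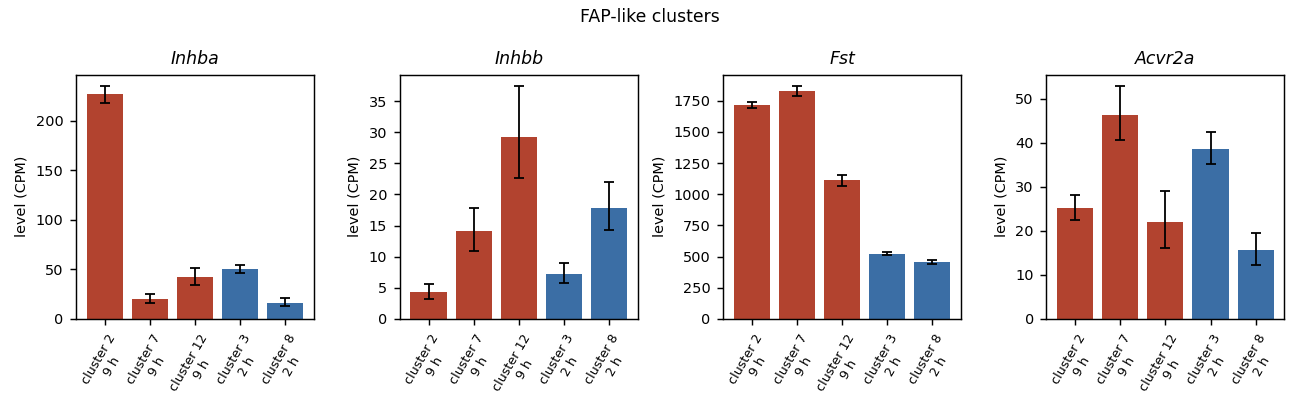
Inhba, Inhbb, Fst and Acvr2a in the FAP-like clusters with at least 50 cells in a library (bars: CPM on a linear axis from 0; error bars: 95% Poisson intervals for counting error). Inhba was highest in cluster 2 at 227 CPM and Inhbb in cluster 12 at 29.3 CPM, both at 9 h.

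Fst (ENSMUSG00000021765, mm10 chromosome 13, 114452290 to 114458951, minus strand) was a gene of FAP-like cells. They had 1662 CPM at 9 h (1644 to 1680) and 505 CPM at 2 h (495 to 517), a ratio of 3.29 (3.21 to 3.37). Almost all Fst UMIs lay in this class, 95.1% at 9 h and 96.7% at 2 h. After thinning, 55.1% of FAP-like cells had an Fst UMI at 9 h and 27.8% at 2 h, and without thinning 83.8% and 63.4%. Neutrophil-like cells, at median depths of 1658 and 2013 UMIs, had a thinned share of 1.27% at 9 h and 0.521% at 2 h. Unlike Inhba, Fst differed little between cluster 2 at 1714 CPM and cluster 7 at 1828 CPM, and cluster 12 had 1110 CPM. At 2 h, cluster 3 had 523 CPM and cluster 8 had 456 CPM. Each of the 9 h clusters was thus above both 2 h clusters. Splitting the 9 h FAP-like cells at the median of Cxcl5 gave 1863 CPM above it and 1433 CPM at or below it, a ratio of 1.30 (1.27 to 1.33), against 6.84 for Inhba.

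Outside mesenchymal cells, Fst levels are given beside the estimate for carried FAP RNA. The estimate rests on few cells in some classes: 198 of 302 Dcn UMIs in endothelial-like cells at 2 h lay in 1 cell, as did 178 of 629 in dendritic-like cells at 9 h and 160 of 509 in monocyte-like cells at 2 h. Neutrophil-like cells had 17.1 CPM at 9 h and 3.71 CPM at 2 h, beside carried levels of 13.9 and 4.11 CPM. Resident macrophage-like cells had 41.0 CPM at 9 h and 20.7 CPM at 2 h, beside 70.7 and 30.1 CPM. Dendritic-like cells had 129 CPM at 9 h and 3.01 CPM at 2 h, beside a carried 135 CPM at 9 h, and 56 of their 124 UMIs at 9 h lay in 1 cell. Endothelial-like cells had 296 CPM at 9 h (490 UMIs, 144 in 1 cell) and 0 UMIs at 2 h. With 3 counts put in place of the 0, the ratio was 94.6, and the exact interval of the ratio reached down to 76.6. The carried level there was put at 221 CPM at 9 h and 9.43 CPM at 2 h, where the 0 UMIs allow up to 3.85 CPM. Without the cells of highest doublet score the log2 ratio dropped to 1.02, against 4.94 with all cells. Monocyte-like cells had 31 Fst UMIs at 9 h (8 in 1 cell), an interval of 10.2 to 21.2 CPM that lay above the carried 7.07 CPM. So did the 9 h intervals of neutrophil-like (14.4 to 20.2 CPM) and endothelial-like cells (270 to 323 CPM), beside carried levels of 13.9 and 221 CPM. In neutrophil-like cells 13 of the 138 UMIs lay in 1 cell. The carried levels have no interval, and single cells weigh on the measured ones, so these gaps were not tested. Tenocyte-like cells, in which Dcn is a gene of their own so that no such estimate applies, had 1199 CPM at 9 h (124 of 580 UMIs in 1 cell) and 180 CPM at 2 h. Satellite-like cells had 34.1 CPM at 9 h and 48.4 CPM at 2 h. Pericyte or smooth muscle-like cells had 968 CPM at 9 h (101 of 180 UMIs in 1 cell) and 48.7 CPM at 2 h (11 UMIs). Carried levels there were put at 545 and 35.6 CPM.

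Inhba and Fst were also read in the same FAP-like cells. Of 2324 thinned FAP-like cells at 9 h, 98 had UMIs of both genes, against 95.4 from the product of the shares, 75 had Inhba without Fst and 1183 had Fst without Inhba. Fst was found in 56.6% (48.9% to 64.1%) of cells with Inhba and 55.0% (52.9% to 57.1%) of cells without it, and these intervals met. Of 1991 thinned cells at 2 h, 7 had both, against 16.7 from the product. Fst was then found in 11.7% (4.82% to 22.6%) of cells with Inhba and 28.3% (26.3% to 30.4%) of cells without it. At 2 h the genes thus shared fewer cells than their product, on 60 cells with Inhba.

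Fstl1 (ENSMUSG00000022816, mm10 chromosome 16, 37776873 to 37836514, plus strand) was lower at 9 h in 4 of the 6 compared classes. Among these 4, monocyte-like cells had 4 UMIs at 9 h and 60 at 2 h, under the 100 UMIs set for a measured gene. Their levels of 1.93 and 44.6 CPM stood beside carried FAP RNA of 3.92 and 38.1 CPM. FAP-like cells had 921 CPM at 9 h (908 to 935) and 1702 CPM at 2 h (1682 to 1723), 1.85-fold lower (1.81 to 1.88), with 95.7% of its UMIs at 9 h and 94.4% at 2 h. At 9 h, cluster 12 had 1337 CPM, cluster 7 had 910 CPM and cluster 2 had 848 CPM. At 2 h, cluster 8 had 2313 CPM and cluster 3 had 1438 CPM. Fstl1 thus had the same order of clusters as Inhbb at each time. Resident macrophage-like cells had 39.0 CPM at 9 h and 200 CPM at 2 h, 5.13-fold lower (3.88 to 6.88), beside carried levels of 39.2 and 101 CPM. In that class 99 of the 435 UMIs at 2 h lay in 1 cell, and without the cells of highest doublet score the log2 ratio was -0.50, against -2.10 with all cells. Of the genes measured there, 9.94% were at least 2-fold lower. Endothelial-like cells had 161 CPM at 9 h and 109 CPM at 2 h, beside carried levels of 123 and 31.8 CPM. Their ratio of 1.48 (1.18 to 1.88) turned to a log2 ratio of -0.61 at a finer clustering, -0.63 with a mitochondrial limit of 10% and -0.90 without the cells of highest doublet score. Neutrophil-like cells had 8.67 CPM at 9 h and 18.3 CPM at 2 h, beside carried levels of 7.69 and 13.8 CPM.

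Fstl3 (ENSMUSG00000020325, mm10 chromosome 10, 79777272 to 79782630, plus strand) was scarce, with 122 UMIs at 9 h and 96 at 2 h over all kept cells. FAP-like cells had 4.70 CPM at 9 h and 3.03 CPM at 2 h, a ratio of 1.55 (1.09 to 2.24). Like Inhba, it was higher in cluster 2 at 5.74 CPM (4.48 to 7.23) than in cluster 7 at 2.91 CPM (1.59 to 4.88), with intervals that met. Tenocyte-like cells had 14.5 CPM at 9 h (7 UMIs) and 35.6 CPM at 2 h (30 UMIs), and held 31.2% of its UMIs at 2 h.

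No receptor gene reached a 2-fold difference in FAP-like cells. Acvr1b (ENSMUSG00000000532, mm10 chromosome 15, 101174067 to 101213684, plus strand), the activin type I receptor, had levels of 23.7 CPM at 9 h and 15.7 CPM at 2 h in FAP-like cells, a ratio of 1.51 (1.29 to 1.76). In monocyte-like cells it had 12.1 CPM at 9 h (25 UMIs) and 26.0 CPM at 2 h (35 UMIs), a ratio of 0.464 (0.266 to 0.798). Resident macrophage-like cells had 8.21 CPM at 9 h (12 UMIs) and 16.5 CPM at 2 h (36 UMIs), a ratio of 0.496 (0.235 to 0.976). Acvr1b was thus higher at 9 h in FAP-like cells and lower in both macrophage-lineage classes, on few UMIs and with no test of that difference. Neutrophil-like cells had 7.55 CPM at 9 h and 9.70 CPM at 2 h, endothelial-like cells 18.7 and 10.4 CPM, and dendritic-like cells 8.34 and 3.77 CPM.

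Acvr2a (ENSMUSG00000052155, mm10 chromosome 2, 48814109 to 48903269, plus strand), a type II receptor gene, had levels of 30.2 CPM at 9 h and 31.7 CPM at 2 h in FAP-like cells, a ratio of 0.951 (0.843 to 1.07). Endothelial-like cells had 35.0 CPM at 9 h and 35.5 CPM at 2 h, and dendritic-like cells 42.7 CPM at 9 h (41 UMIs) and 28.6 CPM at 2 h (38 UMIs). The intervals of these 3 classes met at each time, and those of resident macrophage-like cells (16 UMIs at 9 h and 36 at 2 h) and of monocyte-like cells (27 and 22 UMIs) lay below that of FAP-like cells. Neutrophil-like cells had 1.73 CPM at 9 h (14 UMIs) and 0.856 CPM at 2 h (3 UMIs). Within FAP-like cells at 9 h, cluster 7 had 46.3 CPM of Acvr2a (40.5 to 52.8), against 25.1 CPM (22.4 to 28.1) in cluster 2. Acvr1b also stood higher in cluster 7, at 34.5 CPM (29.4 to 40.2), than in cluster 2, at 20.8 CPM (18.3 to 23.5). The cluster with the least Inhba thus had the most of both activin receptors at 9 h. At 2 h, cluster 3 had 38.6 CPM of Acvr2a and 18.6 CPM of Acvr1b, and cluster 8 had 15.6 and 9.23 CPM, so there the cluster with more Inhba also had more of both receptors.

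Acvr1 (ENSMUSG00000026836, mm10 chromosome 2, 58388644 to 58567157, minus strand) had levels of 21.2 CPM at 9 h and 30.1 CPM at 2 h in FAP-like cells, 1.42-fold lower (1.25 to 1.63). Endothelial-like cells had 28.4 CPM at 9 h and 30.3 CPM at 2 h, and neutrophil-like cells 1 UMI at each time. Acvr2b (ENSMUSG00000061393, mm10 chromosome 9, 119402118 to 119434995, plus strand) had 47 UMIs at 9 h and 59 at 2 h in all. FAP-like cells had 1.38 CPM at 9 h and 2.10 CPM at 2 h, endothelial-like cells 4.83 and 10.4 CPM, and neutrophil-like cells 0 UMIs at both times. Neutrophil-like cells thus carried Inhba but few UMIs of the type II receptors, and of Acvr1b they had 61 UMIs at 9 h and 34 at 2 h.

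**Figure D4:**
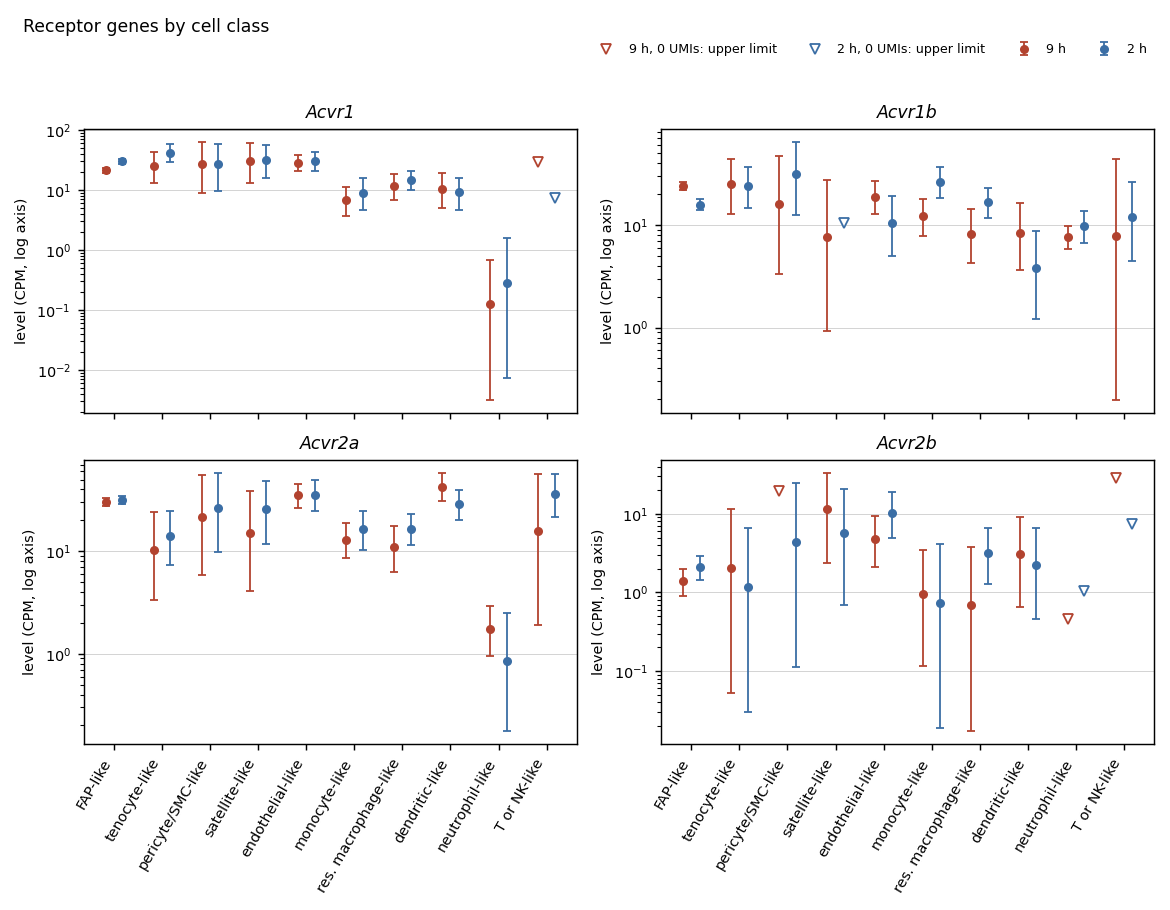
Levels of the receptor genes Acvr1, Acvr1b, Acvr2a and Acvr2b in each cell class (CPM on a log axis, 95% Poisson intervals for counting error, 9 h left of 2 h; open triangles give the upper limit where no UMI was counted). Acvr2a lay at 1.73 CPM in neutrophil-like cells at 9 h, against 30.2 CPM in FAP-like cells.

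Of the 8 members measured in FAP-like cells (at least 100 UMIs over both times, all but Acvr2b), 2 were higher past 2-fold, Inhba and Fst, and none was lower. Over all 10483 measured genes 15.7% were higher and 20.6% lower by class totals, a balance that turned with TMM scaling (2044 higher and 1895 lower). In endothelial-like cells 2 of 3 measured members were higher, where 10.1% of all measured genes were higher and 9.93% lower. In neutrophil-like cells 2 of 3 were higher and 1 lower (9.10% and 10.2% of all), and among resident macrophage-like cells 1 of 3 was higher and 1 lower (6.18% and 9.94% of all). These counts outside FAP-like cells include Fst and Fstl1, whose carried levels are given above. Inhba was the 1 measured member in monocyte-like cells and was higher. Fst was the 1 measured member in dendritic-like cells and was higher, where 6.95% of 2963 genes were higher and 7.09% lower.

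Other genes of the pathway were read from 6 lists. Of the 8 early SMAD2 or SMAD3 target genes, all measured in FAP-like cells, 4 were higher past 2-fold, 2 were lower and 2 were neither. Over all 10483 measured genes 15.7% were higher and 20.6% lower. The median log2 ratio of the 8 genes was 0.62, against 0.00 over all measured genes. Ccn2, a matricellular protein gene, had 2100 CPM at 9 h and 530 CPM at 2 h, a ratio of 3.96 (3.87 to 4.06). Smad7, the inhibitory SMAD, had 95.4 CPM at 9 h and 44.2 CPM at 2 h, and Tgif1, a SMAD corepressor gene, 98.7 and 42.2 CPM. Ski, another corepressor gene, was 3.61-fold lower, with 49.8 CPM at 9 h and 180 CPM at 2 h. The other lower target, below the 50 CPM set for naming and named after its value was seen, was Ldlrad4 with 16.6 CPM at 9 h and 36.0 CPM at 2 h. None of these genes answers to activin alone, since TGF-beta and other signals also act on them. No receptor of the 8 measured passed 2-fold in FAP-like cells, with a median log2 ratio of -0.38.

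Among the proprotein convertases, which cleave ligand precursors, Furin was higher in FAP-like cells with 120 CPM at 9 h and 50.1 CPM at 2 h. Pcsk6 was 4.22-fold lower, with 107 CPM at 9 h and 451 CPM at 2 h. Smad1, which carries bone morphogenetic protein signals, was 2.19-fold lower, with 63.0 CPM at 9 h and 138 CPM at 2 h. Over all lists and without the 9 members, 5 genes were higher and 5 lower of 32 measured in FAP-like cells. Of all 10483 measured genes 15.7% were higher and 20.6% lower, so by class totals the list genes passed 2-fold no more often than all genes. With TMM scaling 5 list genes were higher and 2 lower, beside 2044 and 1895 of the 10483 genes. The fifth lower gene, also named after its value was seen, was Igsf1 with 3.47 CPM at 9 h and 7.04 CPM at 2 h.

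In the macrophage lineage, Gdf15, a distant relative of the activins, was higher among monocyte-like cells, with 51.7 CPM at 9 h and 14.9 CPM at 2 h. It was also higher in resident macrophage-like cells, with 458 CPM at 9 h and 133 CPM at 2 h. Skil, a SMAD corepressor gene, had 230 CPM in monocyte-like cells at 9 h and 109 CPM at 2 h. Resident macrophage-like cells had 147 CPM of Ccn2 at 9 h and 54.2 CPM at 2 h. Carried FAP RNA there was put at 89.4 CPM of Ccn2 at 9 h and 31.6 CPM at 2 h. Tgfbr2, a TGF-beta receptor gene, was 2.35-fold lower in resident macrophage-like cells, with 58.1 CPM at 9 h and 136 CPM at 2 h.

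Likeness was measured over 25 groups of cells (a cluster in 1 library, at least 50 cells) by Pearson's r of the log2 level with 10 CPM added, among 6291 genes. The groups share libraries and depth, and the values are descriptions. The genes most like Inhba were Hif1a (0.78), Tmem248 (0.77), Fmnl2 (0.75), Thbs1 (0.70) and Gde1 (0.70). The genes most like Fst were Ptx3 (0.96), Pdgfra (0.94), Adamts5 (0.94), Serpine2 (0.94) and Il33 (0.93). Pdgfra is a defining FAP marker, and no gene reached such values with Inhba.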

How the data were processed

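Mononuclear cells were measured with the 10x 3′ v3.1 kit. The deposited matrices are counts of UMIs by gene and barcode. Per the submitters' processing notes, the authors used Cell Ranger 5.0.0 with mm10. Animals per library and the annotation release are not given in the sources used here. Gene positions came from GENCODE M21 and promoters from RefSeq (GRCm38.p6). Genes overlap Inhba, Fst, Fstl3, Acvr1, Acvr1b, Acvr2a and Acvr2b in that annotation, and whether counting used strand is not stated. The antisense gene inside Inhba had 0 UMIs at both times.

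The files held 8790 barcodes at 9 h and 5729 at 2 h. Cells under 500 UMIs or 200 genes (264 and 513) and then over 20% mitochondrial UMIs (379 and 316) were removed. Scrublet called 0 and 6 doublets, under 0.5%, so its calls were set aside. Cells were clustered with Scanpy 1.11.5 (2000 variable genes without members and list genes, 30 components, 15 neighbours, Leiden resolution 1) and named from 21 marker lists, a cluster needing at least 3 detected markers. 1 cluster of 98 cells at 9 h and 1 cell at 2 h stayed unnamed. UMIs were summed per class and scaled to 1000000. Levels carry exact Poisson intervals, shares Clopper-Pearson intervals and ratios exact conditional binomial intervals. Carried RNA in a class is its Dcn (or S100a8) level over that of FAP-like (or neutrophil-like) cells, times the gene's level there. Log2 ratios add 10 CPM. The ratio step was run on simulated Poisson counts with known folds. UMIs were not clumped in a few cells there, so it cannot tell how far the intervals are too narrow. TMM factors came from edgeR 4.0.16 in R 4.3.3, and Python was 3.11.15.

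Named were all 9 members, and list genes past 2-fold with at least 50 CPM in 1 library in FAP-like or macrophage-lineage cells. The members and lists were chosen with earlier results of these data known. Endothelial and neutrophil list genes in the closing section were named after their values were seen. The values of 1 list gene are not reported here.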

Additional observations from a re-analysis of the deposited data

Results flagged for a closer look

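Fstl1 went in opposite directions between classes, and this difference was not tested. Its ratio of 9 h over 2 h was 1.48 in endothelial-like and 2.24 in dendritic-like cells, against 0.541 in FAP-like, 0.475 in neutrophil-like, 0.195 in resident macrophage-like and 0.0433 in monocyte-like cells. The dendritic-like (47 and 29 UMIs) and monocyte-like ratios (4 and 60 UMIs) rest on fewer than the 100 UMIs set for a measured gene. Neutrophil-like levels were 8.67 CPM at 9 h and 18.3 CPM at 2 h, beside carried levels of 7.69 and 13.8 CPM. In monocyte-like cells 39 of the 60 UMIs at 2 h lay in 1 cell, beside a carried level of 38.1 CPM for 44.6 CPM measured. In dendritic-like cells 24 of the 29 UMIs at 2 h lay in 1 cell. Their levels were 49.0 CPM at 9 h and 21.8 CPM at 2 h, beside carried levels of 75.0 and 5.16 CPM. The endothelial-like ratio changed sign under 3 alternatives, with log2 ratios of -0.61, -0.63 and -0.90. The levels there were 161 CPM at 9 h and 109 CPM at 2 h, beside carried levels of 123 and 31.8 CPM.

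Acvr1b also differed in direction, likewise untested, with a ratio of 1.51 in FAP-like cells, against 0.464 in monocyte-like and 0.496 in resident macrophage-like cells. The lower ratios rest on 25 and 35 UMIs and on 12 and 36 UMIs (9 h and 2 h), under the 100 UMIs set for a measured gene. The FAP-like log2 ratio of 0.39 was 0.23 without the Saa1-rich cluster.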

How the results depend on the processing

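No paired analysis was possible because there was 1 library per time. Of 186 alternative log2 ratios for 19 member-by-class results, 8 had the opposite sign. For results with a log2 ratio (10 CPM added) of at least 1 in size, 84 of 88 alternatives kept at least that size. Both counts include alternatives that could not go the other way. Leaving out the Saa1-rich FAP-like cluster changes no ratio outside FAP-like cells, and a smaller pseudocount can only enlarge a ratio. Results past 2-fold only without the added 10 CPM are not among the 88. For Inhba in FAP-like cells (1.70), subtracting the neutrophil-like level gave -0.44, leaving out the Saa1-rich cluster 2.04, TMM 1.83 and a pseudocount of 1 CPM 1.91. For Fst in FAP-like cells (1.70) the values were 1.66 without that cluster, 1.74 without high doublet scores and 1.84 with TMM. Fstl1 in FAP-like cells (-0.88) gave -0.73 with TMM, Inhbb in endothelial-like cells (2.27) gave 2.73 without high doublet scores, and Inhba in neutrophil-like cells (2.16) gave 2.51 with the smaller pseudocount. TMM shifted ratios by 0.15 in FAP-like, 0.05 in endothelial-like, 0.22 in monocyte-like, -0.02 in resident macrophage-like, -0.11 in dendritic-like and 0.15 in neutrophil-like cells. Inhbb in FAP-like cells gave 0.02 without high doublet scores and 0.01 with TMM, Acvr2a 0.05 with TMM, and Fst in resident macrophage-like cells -0.50 at a mitochondrial limit of 10%.

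The FAP-like share of Inhba UMIs at 9 h (56.2%) was 54.3% at resolution 2, 59.1% without high doublet scores, 54.4% without the Saa1-rich cluster and 58.2% without top cells, and at 2 h (72.3%) it was 76.1% without top cells. The endothelial-like share of Inhbb at 9 h (71.9%) was 66.6% at resolution 2, 65.2% at the 10% limit and 67.1% without high doublet scores. The FAP-like share of Fst at 9 h (95.1%) was 94.4%, 97.0%, 69.4% and 96.6% at resolution 2 and without high doublet scores, the Saa1-rich cluster and top cells. At 2 h (96.7%) it was 97.7% at resolution 0.5, 96.0% at resolution 2, 97.9% with list genes among the variable genes, 96.2% at the 10% limit and 97.6% without top cells. The Inhba and Fst shares without the Saa1-rich cluster had to drop. Its UMIs at 9 h (98 of Inhba and 8796 of Fst) left the FAP-like count but stayed in the total. Lower pathway genes in FAP-like cells numbered 5, 2 with TMM and 8 past 1.5-fold, beside 2162, 1895 and 3176 of all 10483 measured genes. Where not given above, the cause of a change was not tested. At resolution 0.5 dendritic-like cells had no class of their own and gave no value.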

Other observations

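The unnamed cluster of 98 cells at 9 h had 257 CPM of Inhba (185 to 348, 42 UMIs). Its highest marker score was for neutrophils, and its S100a8 level was 42.5% of that of neutrophil-like cells.

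Pathway genes outside the classes described above, past 2-fold with at least 50 CPM in 1 library, included Ccn2, Tgif1 and Gdf15 in endothelial-like cells. Ccn2 had 377 CPM there at 9 h and 40.7 CPM at 2 h, a ratio of 9.26 (6.70 to 13.2). Acvrl1, an endothelial type I receptor gene, was 2.14-fold lower with 105 CPM at 9 h and 225 CPM at 2 h, and Bmpr2, the receptor that pairs with it, 2.07-fold lower with 186 CPM at 9 h and 386 CPM at 2 h. Endothelial-like cells at 9 h held Dcn at 13.3% of the FAP-like level, against 1.87% at 2 h, where 198 of the 302 Dcn UMIs lay in 1 cell. By that measure the carried level at 9 h was 279 CPM of Ccn2, and at 2 h 9.88 CPM. For Gdf15, with 105 CPM at 9 h and 36.5 CPM at 2 h, it was 1.03 and 0.137 CPM.

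In neutrophil-like cells 5 list genes of 19 measured were higher and none lower past 2-fold, where 445 of all 4889 measured genes were higher and 497 lower. With TMM scaling 6 list genes were higher, beside 562 higher and 382 lower of all. Among the 5, Tgif1 had 671 CPM at 9 h and 242 CPM at 2 h, Ski 252 CPM at 9 h and 77.3 CPM at 2 h, Furin 243 CPM at 9 h and 95.9 CPM at 2 h, and Tgfbr1 61.9 CPM at 9 h and 28.5 CPM at 2 h. Ski was thus higher at 9 h in neutrophil-like cells and lower in FAP-like cells, a difference that was not tested.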
